A study of Homo sapiens with 10 samples.

Results

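The genes described here encode the ATP-binding cassette (ABC) transporters, chosen as every row of the count table whose symbol is ABC, a subfamily letter A to G and a number. This gave 47 of 62700 rows, holding 46 gene names because ABCC13 has 2 rows. RNA sequencing had been done to ask what loss of CCAR1, a regulator of cell cycle and apoptosis that the study's title calls a splicing factor, changes across the genome. Polyadenylated RNA was measured in 5 CCAR1 knockout samples and 5 parental samples of the human line RPE p53-/-. RPE cells derive from retinal pigment epithelium, and both groups lack p53 and were grown in the same serum-containing medium. Neither the origin of the replicates (separate cultures or not) nor the number of clones behind the knockout line is stated in the labels. The p-values therefore reflect how these samples vary, and that variation may be technical. Estimated counts were scaled to counts per 1e6 (CPM), and a gene was called changed where edgeR's quasi-likelihood test, adjusted by Benjamini-Hochberg over 18979 genes, gave p under 0.05.

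ABC transporters use the energy of ATP to move molecules across membranes. Subfamily A carries mainly lipids, B and C export drugs, bile constituents, peptides and conjugated metabolites, D serves peroxisomes and lysosomes, and G exports sterols and drugs. Members of E and F keep the ATP-binding domains but have no membrane part, and act on ribosomes. In retinal pigment epithelium the family is known for handling cholesterol and retinoids taken up from photoreceptors.

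CCAR1 itself had 88.5 to 95.6 CPM in knockout replicates 1 to 3 and 126 CPM in both knockout replicates 4 and 5, against 125 to 134 CPM and 173 CPM in the matching parental libraries. Its log2 fold change was -0.48 (SE 0.14, edgeR adjusted p = 0.0201). With the replicate number added to the fit as a block CCAR1 was lower (-0.49, adjusted p = 2.16e-06). With the chromosome 10 median subtracted it was not called (-0.31, adjusted p = 0.121). A gene-level count does not show whether the protein is lost. Replicates 1 to 3 of each genotype had totals of 52.6 to 65.2 in units of 1e6 counts, and replicates 4 and 5 had 320.6 to 385.4. They are named shallow and deep below, and the labels give no reason for the split. The first principal component of log2 CPM (52.8% of the variance) separated the depths, and the second (34%) separated the genotypes. Each also differed with the other factor, so these percentages are not the shares of depth and genotype. The 11 skeletal muscle markers found of 12 listed summed to 273 to 542 CPM in shallow knockout and 401 to 579 CPM in shallow parental libraries, but to 26.7 and 27 CPM in deep knockout and 13.2 and 13.6 CPM in deep parental libraries. Most of the deep sums was TNNT1, at 23.2 and 23.1 CPM in knockout and 9.44 and 9.49 CPM in parental replicates 4 and 5. Erythroid and liver markers also stood higher in the shallow libraries. Of the markers of retinal pigment epithelium, KRT8 (160 ± 37.7 CPM in knockout and 175 ± 36.9 CPM in parental cells, SD, n = 5 each), MITF and OTX2 were present. Of the 9 tested markers of this list 3 were higher in knockout cells, OTX2 (log2 fold change 0.60, edgeR adjusted p = 0.000194), BEST1 (0.59, adjusted p = 0.0124) and LRAT (0.64, adjusted p = 0.0302). RPE65, RLBP1, TYR and TYRP1 averaged under 0.2 CPM in both genotypes.

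Of the 47 rows, 38 passed the filter on low expression and were tested. Called genes numbered 16 (42.1%), of which 9 were higher and 7 lower in knockout cells, beside 36.6% of all genes tested (19.7% higher and 16.9% lower). The share of members called was therefore near the background. The same shares of all genes are the background for each subfamily and gene list below. The median log2 fold change was -0.09 over the tested members and 0.02 over all genes. In 13 members (34.2%) the ranges of the genotypes did not overlap, beside 30.6% of all genes. Changes of at least 2-fold were called in 5 members, 2 higher and 3 lower, and 10.6% of all genes passed the same rule. Calls are from this edgeR fit of all libraries with genotype alone, named the genotype model, unless another is given. In the block model, which adds the replicate number as a block, 15 members were higher and 12 lower, beside 61.2% of all genes called (31.1% higher and 30.1% lower). In bulk RNA, fewer cells of a type and less RNA per cell cannot be told apart. The spread of levels is shown in the plot of levels by library.

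**Figure D1:**
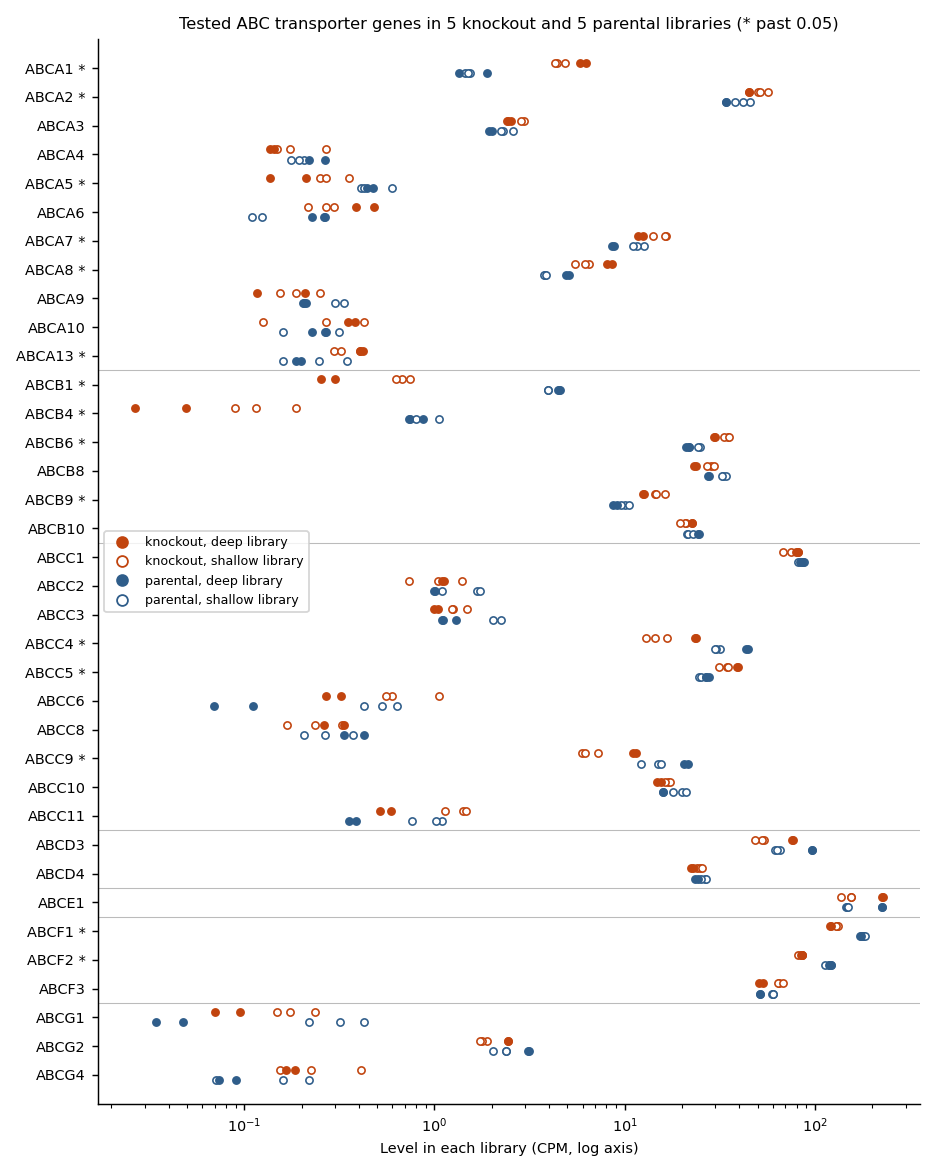
Level of 36 of the 38 tested ABC transporter genes in each library, in CPM on a log axis, with the 5 knockout libraries above the 5 parental ones and subfamilies A to G separated by lines. Filled points are deep and open points shallow libraries, and a star marks members past 0.05; ABCB1 and ABCB4 are the members whose knockout points lie farthest below the parental ones.

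Subfamily A, the lipid carriers, had 12 rows and 11 tested members, of which 5 were higher, 1 was lower and 5 were not called. Over all genes tested 19.7% were higher and 16.9% lower. ABCA1, which loads cellular cholesterol and phospholipid onto apolipoproteins to start high-density lipoprotein, changed most among the members that were higher. It stood at 4.39, 4.83, 4.31, 6.27 and 5.79 CPM in knockout replicates 1 to 5, against 1.54, 1.45, 1.5, 1.88 and 1.34 CPM in parental replicates 1 to 5. The lowest knockout library lay above the highest parental one at both depths. The mean was 5.12 ± 0.872 CPM in knockout and 1.54 ± 0.205 CPM in parental cells (SD, n = 5 each), a log2 fold change of 1.73 (SE 0.14, edgeR adjusted p = 6.69e-06), or 3.32-fold. Shallow libraries alone gave 1.58 and deep libraries alone 1.88. An exact two-sided permutation test of log2 CPM gave ABCA1 p = 0.00794, the smallest that 252 arrangements can give. Each other tested member whose genotypes did not overlap gets the same value. It therefore only restates the lack of overlap, which 30.6% of all genes showed. The arrangements also mixed shallow and deep libraries.

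Because ABCA1 had the highest log2 fold change and ABCB1 is the more abundant of the 2 lowest members, the 250 bases before their RefSeq transcription starts are shown (GRCh38.p14, both on the minus strand, written 5′ to 3′). The ABCA1 stretch is chr9:104928156-104928405 and the ABCB1 stretch chr7:87600885-87601134, which lies before the downstream one of 2 starts in the table. Capitals mark matches, on either strand, to the GC box (GGGCGG), the CCAAT box (CCAAT), an E-box (CACGTG) and a TATA box (TATAAA).
ABCA1: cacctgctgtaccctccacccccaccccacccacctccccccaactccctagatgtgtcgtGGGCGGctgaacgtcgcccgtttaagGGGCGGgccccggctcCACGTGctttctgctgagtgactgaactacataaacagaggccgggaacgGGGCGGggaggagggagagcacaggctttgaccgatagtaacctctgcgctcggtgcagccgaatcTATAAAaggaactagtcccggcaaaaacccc
ABCB1: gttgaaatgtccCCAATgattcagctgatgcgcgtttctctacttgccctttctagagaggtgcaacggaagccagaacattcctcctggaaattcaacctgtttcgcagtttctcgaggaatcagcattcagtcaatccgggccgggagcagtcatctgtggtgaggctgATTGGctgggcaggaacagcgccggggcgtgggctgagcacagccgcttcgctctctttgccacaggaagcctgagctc
The ABCA1 stretch holds 3 GC boxes, 1 E-box and 1 TATA box, and the ABCB1 stretch holds 2 CCAAT boxes and none of the other 3 motifs. Among 35116 promoters of the same length, 42.6% hold a GC box, 32% a CCAAT box, 6.34% this E-box and 10.7% this TATA box. GC content was 61.6% in the ABCA1 and 55.6% in the ABCB1 stretch, beside a median of 58.0% over all promoters. Of the 46 member names, 35 had a promoter in the table, and ABCB4 did not. A match of letters is a description and not a measured binding site.

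ABCA8, a sterol exporter of the same subfamily, was the other A member with both a large change and a level above 0.5 CPM. Its libraries stood at 6.46, 5.48, 6.20, 8.58 and 8.10 CPM in knockout replicates 1 to 5, against 3.79, 3.78, 3.84, 4.89 and 5.07 CPM in parental replicates 1 to 5. The groups did not overlap, although the deep parental libraries came close to the lowest shallow knockout one. The means were 6.96 ± 1.32 CPM in knockout and 4.27 ± 0.646 CPM in parental cells, with a log2 fold change of 0.70 (SE 0.15, edgeR adjusted p = 0.00387). Shallow libraries gave 0.66 and deep libraries 0.73.

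The other A members that were higher changed less or were rare. ABCA2, an endolysosomal lipid carrier, had 49.5 ± 4.92 CPM in knockout and 38.8 ± 5.11 CPM in parental cells (log2 fold change 0.35, edgeR adjusted p = 0.0215). ABCA7, a phospholipid exporter known as an Alzheimer's disease risk gene, had 14.2 ± 2.13 CPM in knockout and 10.5 ± 1.78 CPM in parental cells (0.43, adjusted p = 0.0328). ABCA13, a very large protein of poorly known cargo, had 0.371 ± 0.0564 CPM in knockout and 0.228 ± 0.0736 CPM in parental cells (0.73, adjusted p = 0.0302). The knockout and parental ranges of all 3 overlapped. Each of these 3 calls was lost when certain single libraries were left out, with values from 0.29 to 0.34 for ABCA2, from 0.37 to 0.45 for ABCA7 and from 0.63 to 0.69 for ABCA13 and edgeR adjusted p from 0.0525 to 0.0904. In the shallow libraries alone ABCA13 gave 0.42 with adjusted p = 0.373, and in the deep libraries alone 1.09 with adjusted p = 7.01e-05. With the chromosome 7 median subtracted ABCA13 gave 1.03 with adjusted p = 0.00601. When the median change of chromosome 19 was subtracted, ABCA7 gave 0.26 with adjusted p = 0.190.

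ABCA5, a lysosomal protein linked to cholesterol handling, was the one A member that was lower, at 0.244 ± 0.0794 CPM in knockout and 0.471 ± 0.0770 CPM in parental cells (SD, n = 5 each). Its log2 fold change was -0.98 (SE 0.25, edgeR adjusted p = 0.0103), and the ranges, 0.137 to 0.354 CPM in knockout and 0.409 to 0.601 CPM in parental cells, did not overlap. The call was lost in the shallow libraries alone (-0.72, adjusted p = 0.0799) and when the chromosome 17 median was subtracted (-0.70, adjusted p = 0.0518).

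ABCA5 and ABCA8 lie at opposite ends of a run of 5 A genes on chromosome 17, all on the minus strand and spanning 460 kb. From ABCA8 to ABCA5 the log2 fold changes were 0.70 for ABCA8, -0.45 for ABCA9, 0.73 for ABCA6, 0.35 for ABCA10 and -0.98 for ABCA5. Neighbours in this run therefore had values of both signs, and only the 2 outer genes were called. These genes are close paralogs and ABCA10 and ABCA5 overlap at their ends, so that the estimated counts of these neighbours can exchange reads. With the replicate block ABCA6 was higher, at 0.76 (edgeR adjusted p = 0.0221). It was also higher in the deep libraries alone (0.80, adjusted p = 0.00144). With the chromosome 17 median subtracted ABCA6 was higher (1.02, adjusted p = 0.0294), as was ABCA8 (0.99, adjusted p = 0.000536).

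Among the remaining A members, ABCA3, which packs lung surfactant lipids, had 2.63 ± 0.251 CPM in knockout and 2.21 ± 0.254 CPM in parental cells and was not called (0.25, edgeR adjusted p = 0.0983). With the block it was higher (0.26, adjusted p = 0.0220). ABCA4, the retinoid flippase whose loss causes Stargardt disease, had 0.174 ± 0.0550 CPM in knockout and 0.212 ± 0.0342 CPM in parental cells and was not called (-0.33, adjusted p = 0.326), but was lower in the deep libraries alone (-0.81, adjusted p = 0.00606). ABCA9 and ABCA10 had 0.183 to 0.311 CPM as genotype means and were not called in the genotype or the block model, though ABCA10 was higher in the deep libraries alone (0.54, adjusted p = 0.0186).

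Subfamily B had 9 rows and 7 tested members, with 2 higher, 2 lower and 3 not called, beside 36.6% of all genes called. In all 7 the genotypes were apart within the shallow and within the deep libraries, a pattern shown by 22 of the 38 members and 53.9% of all genes. ABCB1, known as P-glycoprotein or MDR1, pumps a wide range of drugs and toxins out of cells. It stood at 0.745, 0.673, 0.629, 0.254 and 0.300 CPM in knockout replicates 1 to 5, against 3.95, 4.54, 3.94, 4.56 and 4.45 CPM in parental replicates 1 to 5. Every knockout library was below every parental one, and the 2 deep knockout libraries were below the 3 shallow ones. The means were 0.520 ± 0.226 CPM in knockout and 4.29 ± 0.315 CPM in parental cells, a log2 fold change of -3.10 (SE 0.30, edgeR adjusted p = 2.52e-05), or 8.56-fold lower. Its gene spans chr7:87503633-87713323 in the GENCODE annotation of GRCh38.

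ABCB4, its paralog next door (chr7:87401697-87480435), moves phosphatidylcholine into bile. It was at 0.186, 0.115, 0.0898, 0.0496 and 0.0268 CPM in knockout replicates 1 to 5, against 0.740, 0.795, 1.06, 0.738 and 0.870 CPM in parental replicates 1 to 5. Here too every knockout library lay below every parental one. Over all libraries these are 47 counts in knockout and 708 counts in parental cells. The means were 0.0935 ± 0.0622 CPM in knockout and 0.841 ± 0.134 CPM in parental cells, a log2 fold change of -3.36 (SE 0.45, edgeR adjusted p = 0.000213), or 10.3-fold lower.

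For both genes the change differed in size with depth. ABCB1 gave -2.61 (shallow) and -4.04 (deep), and ABCB4 gave -2.72 (shallow) and -4.39 (deep). The mean of the shallow libraries over that of the deep ones was 2.46 for ABCB1 in knockout cells and 0.920 in parental cells, and 3.42 in knockout and 1.08 in parental cells for ABCB4. Transcripts of other tissues also differed with depth. The 12 liver markers summed to 62 to 108 CPM in shallow knockout and 37.8 to 97.6 CPM in shallow parental libraries, against 3.38 to 3.42 CPM in deep knockout and 2.16 to 2.59 CPM in deep parental ones. The 10 erythroid markers summed to 47.7 to 190 CPM in shallow knockout and 36.2 to 126 CPM in shallow parental libraries, and to under 0.4 CPM in every deep library. Every one of these markers was detected in some library, and their part in the difference with depth was not tested. Both genes were called in each depth alone and with each single library left out.

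The surroundings of these genes are shown in the plot of neighbouring genes. Within 1 Mb of the ABCB1 start, 11 protein-coding genes including ABCB4 were tested, of which 6 were lower and 5 not called, with a median of -0.45. Leaving ABCB4 aside, the lowest of them was SLC25A40, a mitochondrial carrier, at -0.93 (SE 0.19, edgeR adjusted p = 0.00324). RUNDC3B, whose start lies nearest, was at -0.54 (SE 0.31) and was not called. The median of all chromosome 7 genes was -0.30, and with it subtracted ABCB1 and ABCB4 remained lower, at -2.80 (adjusted p = 5.15e-05) and -3.06 (adjusted p = 0.000413). So did SLC25A40 (-0.63, adjusted p = 0.0263), while TMEM243, DBF4, ADAM22 and SRI, the other neighbours called lower, were no longer called (adjusted p = 0.232 to 0.827). ABCA1 differed from its surroundings in the other direction. Of its 7 tested neighbours 6 were not called and 1, SMC2, was lower, with a median of -0.01.

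**Figure D2:**
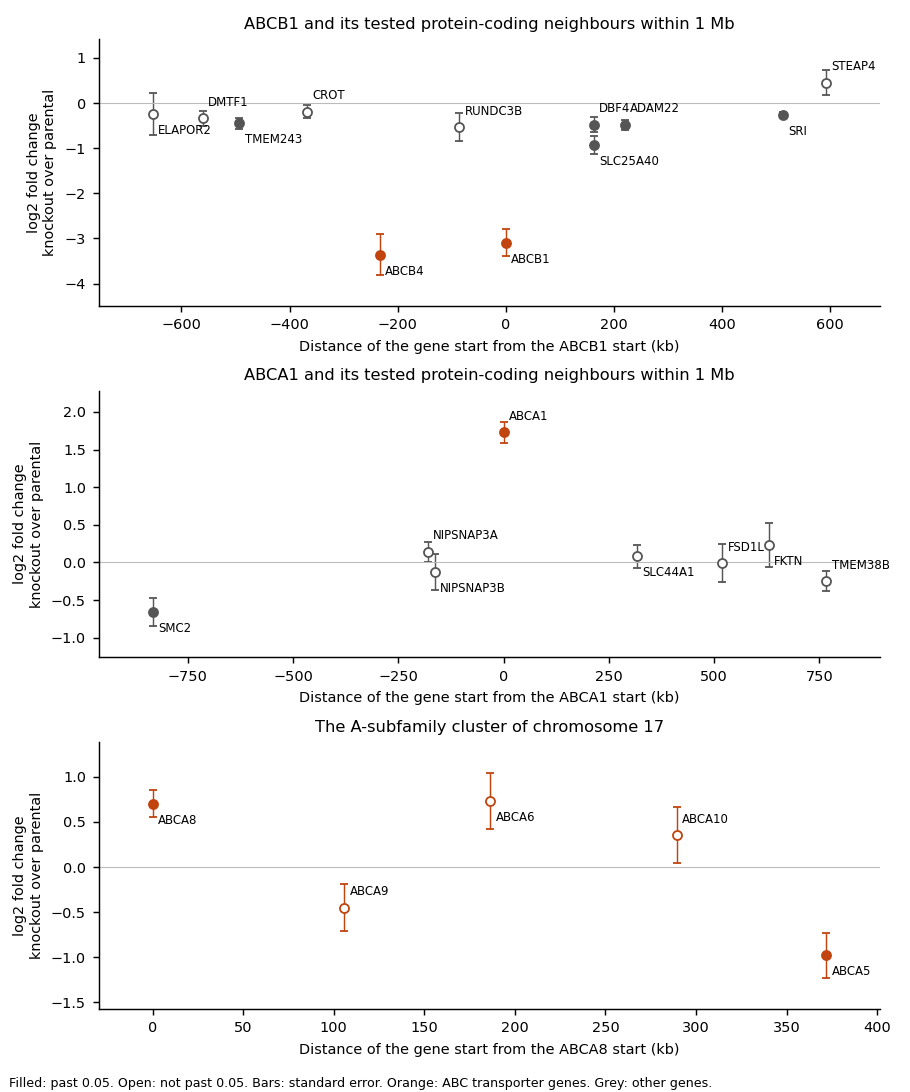
Log2 fold change of knockout over parental, with its standard error, against the distance in kb between gene starts, for the surroundings of ABCB1, those of ABCA1 and the A-subfamily run of chromosome 17. Filled points are past 0.05, orange points are ABC transporter genes; ABCB1 and ABCB4 lie below -3 while the other genes of their panel lie between -0.93 and 0.45.

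The B members that were higher work inside the cell. ABCB6, which carries porphyrins, had 32.6 ± 2.74 CPM in knockout and 22.7 ± 1.72 CPM in parental cells (SD, n = 5 each; log2 fold change 0.52, SE 0.079, edgeR adjusted p = 0.000451). ABCB9, a lysosomal peptide carrier, had 14.1 ± 1.57 CPM in knockout and 9.57 ± 0.732 CPM in parental cells (0.56, SE 0.092, adjusted p = 0.000801). For both, the ranges of the genotypes did not overlap.

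Of the B members in mitochondria, ABCB8 and ABCB10 were not called in the genotype model. ABCB8 had 26.3 ± 2.86 CPM in knockout and 30.9 ± 3.03 CPM in parental cells (-0.23), and it was lower in the block model (adjusted p = 0.000571), with DESeq2 (-0.26, adjusted p = 0.0301) and in each depth alone. With the chromosome 7 median subtracted the ABCB8 value turned to 0.07 and was not called. ABCB10, linked to heme synthesis, had 21.4 ± 1.32 CPM in knockout and 22.9 ± 1.53 CPM in parental cells, and it was lower with depth as a term (-0.10, edgeR adjusted p = 0.0243) and in the deep libraries alone (-0.13, adjusted p = 0.00128).

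**Figure D3:**
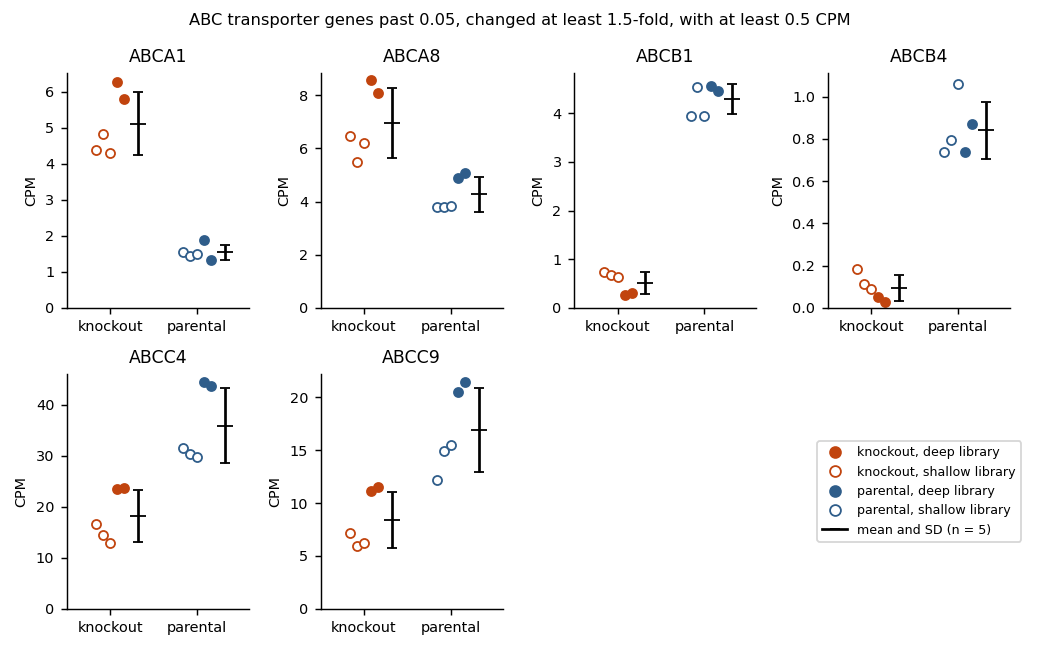
CPM in each library for 6 ABC transporter genes past 0.05 that changed at least 1.5-fold and averaged at least 0.5 CPM in either genotype, knockout left and parental right, on axes that start at 0. Filled points are deep and open points shallow libraries, bars give the mean and SD of 5 libraries, and in none of the 6 panels do the genotypes overlap.

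Subfamily C had 13 rows and 10 tested members, with 1 higher, 2 lower and 7 not called, beside 36.6% of all genes called. ABCC4, also called MRP4, exports cyclic nucleotides and prostaglandins. It stood at 16.7, 14.4, 12.9, 23.4 and 23.6 CPM in knockout replicates 1 to 5, against 31.6, 30.3, 29.8, 44.4 and 43.6 CPM in parental replicates 1 to 5. Deep libraries were higher than shallow ones in both genotypes, and the genotypes did not overlap. The means were 18.2 ± 5.03 CPM in knockout and 35.9 ± 7.37 CPM in parental cells, a log2 fold change of -0.98 (SE 0.20, edgeR adjusted p = 0.00329), with -1.07 at shallow and -0.92 at deep sequencing. Chromosome 13, where ABCC4 lies, had a median of -0.41, and with it subtracted ABCC4 gave -0.57 with adjusted p = 0.0514.

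ABCC9, also called SUR2, is no pump but the regulatory subunit of an ATP-sensitive potassium channel. It stood at 7.2, 5.96, 6.20, 11.1 and 11.5 CPM in knockout replicates 1 to 5, against 12.2, 14.9, 15.5, 20.5 and 21.4 CPM in parental replicates 1 to 5. The deep knockout libraries came just below the lowest parental one, and there was no overlap. The means were 8.37 ± 2.67 CPM in knockout and 16.9 ± 3.94 CPM in parental cells, a log2 fold change of -1.01 (SE 0.23, edgeR adjusted p = 0.00612), with -1.14 at shallow and -0.91 at deep sequencing. KCNJ8, a pore subunit that works with this protein, had 3.56 ± 0.341 CPM in knockout and 3.43 ± 0.301 CPM in parental cells (0.05, adjusted p = 0.753), and was picked out after its values were seen.

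ABCC5, an exporter of cyclic nucleotides, was the C member that was higher, at 35.8 ± 3.31 CPM in knockout and 26.2 ± 1.21 CPM in parental cells (SD, n = 5 each), without overlap. Its log2 fold change was 0.45 (SE 0.075, edgeR adjusted p = 0.000831). ABCC1, or MRP1, which exports glutathione conjugates, was the most abundant C member per kb of exon. It had 76.8 ± 5.83 CPM in knockout and 84.7 ± 2.45 CPM in parental cells and was not called in the genotype model (-0.14, adjusted p = 0.116). It was lower in the block model (-0.14, adjusted p = 0.0236), with DESeq2 (-0.17, adjusted p = 0.0249), in each depth alone and with chromosome medians subtracted (-0.19, adjusted p = 0.0406). ABCC10, a related drug exporter, had 16.2 ± 1.04 CPM in knockout and 18.1 ± 2.36 CPM in parental cells. It was not called in the genotype model but was lower in the block model (-0.15, adjusted p = 0.0204) and in the shallow libraries alone (-0.22, adjusted p = 0.0167). With the chromosome 6 median subtracted its value was 0.16 and not called.

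Of the rarer C members, ABCC6 and ABCC11 stood higher in the shallow than in the deep libraries of both genotypes. ABCC6, which mediates ATP release and is mutated in pseudoxanthoma elasticum, had 0.560 ± 0.313 CPM in knockout and 0.354 ± 0.253 CPM in parental cells. Its shallow libraries stood 2.50 times above the deep ones in knockout and 5.89 times in parental cells, with log2 fold changes of 0.47 (shallow alone) and 1.67 (deep alone). It shares sequence with the pseudogenes ABCC6P1 and ABCC6P2, so its level is uncertain. ABCC11, known for its role in earwax type, had 1.02 ± 0.445 CPM in knockout and 0.726 ± 0.348 CPM in parental cells. Neither was called in the genotype model, and both were higher in the block model, ABCC6 at 0.99 (edgeR adjusted p = 0.0105) and ABCC11 at 0.52 (adjusted p = 0.0115), and in the deep libraries alone. ABCC2 and ABCC3, exporters of conjugated bile constituents, averaged 1.08 and 1.20 CPM in knockout and 1.30 and 1.56 CPM in parental cells, and ABCC8, the sulphonylurea receptor of pancreatic beta cells, 0.265 CPM in knockout and 0.320 CPM in parental cells. None of these 3 was called in the genotype or the block model.

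Subfamily D had 4 rows and 3 tested members. Its peroxisomal members bring fatty acyl-CoA into the organelle for breakdown. ABCD3, the abundant peroxisomal member that carries branched-chain and other acyl-CoA, had 61.4 ± 13.7 CPM in knockout and 76.9 ± 18.1 CPM in parental cells (SD, n = 5 each). Its log2 fold change of -0.32 was not called (edgeR adjusted p = 0.218) but was with the block (-0.32, adjusted p = 5.83e-05). ABCD4, which moves vitamin B12 out of lysosomes, had 23.9 ± 1.34 CPM in knockout and 25.3 ± 1.32 CPM in parental cells and was called in neither model, but was lower in the deep libraries alone (-0.10, adjusted p = 0.00912). Per kb of exon ABCD3 had 8.09 CPM in knockout and 10.1 CPM in parental cells.

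**Figure D4:**
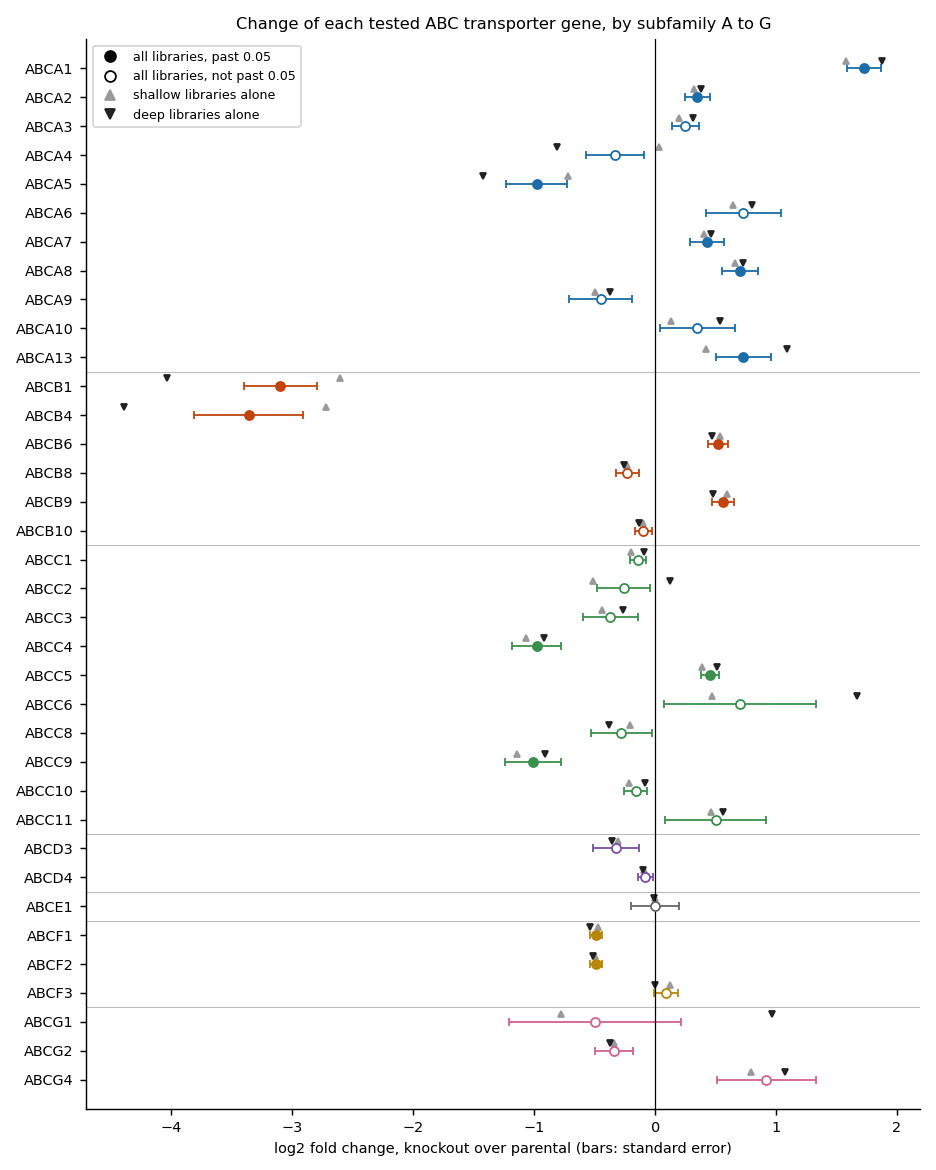
Log2 fold change of knockout over parental with its standard error for 36 of the 38 tested members by subfamily, with grey and black triangles for the shallow and the deep libraries alone. Filled circles are past 0.05; 31 of the 36 have the same sign at both depths, and ABCB1 and ABCB4 show the deep value farther from 0 than the shallow one.

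The E and F members, which act in translation, included the members with the highest levels per kb of exon. ABCE1, the ribosome recycling factor, had 28.6 CPM per kb of exon in knockout and 28.5 CPM per kb in parental cells, and its log2 fold change was 0.00 (SE 0.20, edgeR adjusted p = 0.991). Its libraries ranged from 137 to 228 CPM in knockout and from 146 to 226 CPM in parental cells, and the deep libraries were the higher ones in both genotypes. ABCF1, which acts in translation initiation, had 127 ± 5.41 CPM in knockout and 178 ± 4.49 CPM in parental cells (-0.49, SE 0.051, adjusted p = 3.82e-05). ABCF2, a related cytosolic protein, had 84.3 ± 1.84 CPM in knockout and 119 ± 3.77 CPM in parental cells (-0.49, SE 0.049, adjusted p = 2.48e-05). Neither overlapped between genotypes, and these are the smallest standard errors among the called members.

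Both genes lie on chromosomes with a lowered median, ABCF1 on chromosome 6 (-0.32) and ABCF2 on chromosome 7 (-0.30). With those medians subtracted they stayed lower but by less, at -0.16 (edgeR adjusted p = 0.0294) for ABCF1 and -0.20 (adjusted p = 0.0102) for ABCF2. The read-through gene ABCF2-H2BK1, which shares sequence with ABCF2, was also lower (-0.50, adjusted p = 0.0114) but was not called after the subtraction (-0.21, adjusted p = 0.269), and reads of the pair cannot be told apart with certainty. ABCF3, linked to antiviral defence in mice, had 60.1 ± 7.49 CPM in knockout and 56.5 ± 4.57 CPM in parental cells. It was called in neither model but was higher with depth as a term (0.08, edgeR adjusted p = 0.0493).

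Subfamily G had 5 rows and 3 tested members, of which the genotype model of edgeR and DESeq2 called 0, and 1, ABCG4, had an unadjusted edgeR p under 0.05. Both ABCG2 and ABCG4 were called in the block model, with depth as a term and in the deep libraries alone. ABCG2, the breast cancer resistance protein that exports drugs and urate, had 2.05 ± 0.354 CPM in knockout and 2.61 ± 0.492 CPM in parental cells. Its log2 fold change of -0.34 was not called (edgeR adjusted p = 0.126) but was with the block (-0.34, adjusted p = 0.00596). ABCG4, a sterol exporter, had 0.228 ± 0.107 CPM in knockout and 0.123 ± 0.0651 CPM in parental cells and was not called in the genotype model but was higher in the block model (0.95, adjusted p = 0.0321). ABCG1, which passes cholesterol to high-density lipoprotein after ABCA1 has begun it, had 0.144 ± 0.0647 CPM in knockout and 0.209 ± 0.169 CPM in parental cells and was not called. Its level in shallow libraries was 2.24 times that in deep ones in knockout and 7.82 times in parental cells, and the shallow libraries gave -0.78 where the deep ones gave 0.97.

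The 9 rows left out of the test did not pass the filter on low expression, which asks for a lowest CPM in a set number of libraries. Total counts alone did not decide it, as ABCG1 was tested with 86 counts in knockout and 85 in parental cells. Summed over the 5 libraries of each genotype, ABCA12, a lipid carrier of skin, had 122 counts in knockout and 97 in parental cells, and ABCG8 had 139 counts in knockout and 108 in parental cells. ABCG5, its partner in sterol export, had 37 counts in knockout and 18 in parental cells. ABCG5 was higher in the deep libraries alone (log2 fold change 2.28, edgeR adjusted p = 0.0292). ABCB5 had 17 counts in knockout and 63 in parental cells, with a log2 fold change of -1.65 in the deep libraries alone (edgeR adjusted p = 0.0164). ABCD2, another peroxisomal member, had 28 counts in knockout and 15 in parental cells. It was higher in the deep libraries alone (1.52, edgeR adjusted p = 0.0454). ABCB11, the bile salt export pump, had 16 counts in knockout and 23 in parental cells, and ABCC12 had 30 counts in knockout and 37 in parental cells. Of the ABCC13 rows, one was at 0 in every library and the other had 10 counts in knockout and 16 in parental cells.

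The directions of the members were also set against their chromosomes. Chromosomes 6, 7, 13 and 17 had medians between -0.41 and -0.28 over their protein-coding genes and were picked out after these values were seen. Of their 14 tested members 2 were higher and 6 lower, and of all their genes 37.5% were lower. On the other chromosomes 7 of 24 tested members were higher and 1, ABCC9, was lower, with 12.8% of genes lower. The share of genes higher was not counted for these chromosome sets, and over all genes tested it was 19.7%. With each chromosome's median subtracted from the knockout libraries, 9 members were higher and 6 lower, beside 33.5% of all genes called, and the median over the members was 0.04. The plot of members against chromosome medians shows ABCB1 and ABCB4 far below the shift of chromosome 7. The part of the chromosome shifts in the members' changes was not tested beyond this subtraction.

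**Figure D5:**
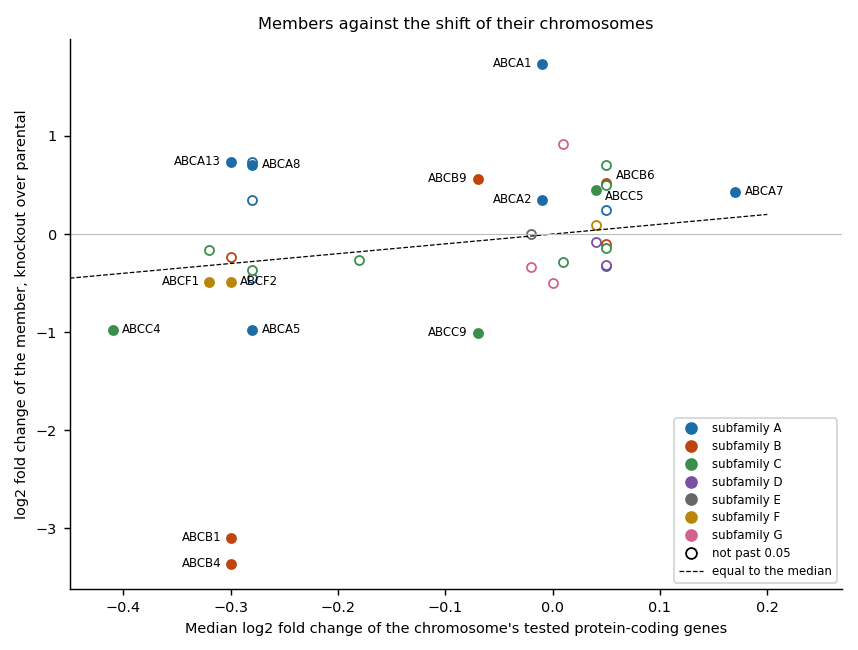
Log2 fold change of 36 of the 38 tested members against the median log2 fold change of the tested protein-coding genes of its chromosome, coloured by subfamily and filled where past 0.05. The dashed line marks a member equal to its chromosome median; ABCF1 and ABCF2 lie near it, ABCB1 and ABCB4 far below it and ABCA1 above it.

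Of 3 transporters of the superfamily with other symbols, 2 were tested, with 1 lower and 1 not called and a median of -0.29. TAP2, which loads peptides for antigen presentation, had 89.6 ± 3.72 CPM in knockout and 118 ± 1.32 CPM in parental cells (SD, n = 5 each; log2 fold change -0.40, edgeR adjusted p = 0.000120). With the chromosome 6 median subtracted it gave -0.08 and was not called (adjusted p = 0.268). Its partner TAP1 was not called (-0.17, adjusted p = 0.180) but was lower in the block model (adjusted p = 0.0107). CFTR was too rare to test.

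Of 15 tested transcription factors known to act on ABC transporter genes, 1 was higher, 4 were lower and 10 were not called. Over all genes 19.7% were higher and 16.9% lower. The median log2 fold change of the list was -0.05. NR1H3, an oxysterol receptor that activates ABCA1 and ABCG1, had 10.3 ± 2.18 CPM in knockout and 5.83 ± 0.862 CPM in parental cells (0.81, SE 0.16, edgeR adjusted p = 0.00272). The lower ones were the lipid-sensing receptors PPARD (-0.71, adjusted p = 0.000245) and PPARA (-0.50, adjusted p = 0.0101), the antioxidant regulator NFE2L2 (-0.30, adjusted p = 0.0354) and SREBF2. SREBF2, which drives cholesterol synthesis genes, is named here after its values were seen (-0.21, adjusted p = 0.0475). So is NR1H2, another oxysterol receptor, with 60.8 ± 15.1 CPM in knockout and 66.5 ± 12.1 CPM in parental cells. NR1H2 was not called (-0.13, edgeR adjusted p = 0.655) but was lower in the block model (-0.15, adjusted p = 0.0241). With the block 3 of the list were higher and 6 lower, beside 31.1% and 30.1% of all genes.

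Of 25 tested proteins that bind, anchor or work beside the transporters, 1 was higher, 7 were lower and 17 were not called. Over all genes 19.7% were higher and 16.9% lower. The median of the list was -0.07. EZR, or ezrin, which anchors membrane proteins such as P-glycoprotein to actin, had 511 ± 36.1 CPM in knockout and 1240 ± 79.0 CPM in parental cells (-1.28, SE 0.068, edgeR adjusted p = 3.27e-07). Its relatives MSN (0.10, adjusted p = 0.155) and RDX (-0.29, adjusted p = 0.329) were not called and are named after their values were seen. MSN had 1690 ± 75.9 CPM in knockout and 1580 ± 37.3 CPM in parental cells. RDX was lower in the block model (-0.30, adjusted p = 0.000121). NPC1, which releases cholesterol from lysosomes, was at -0.67 (adjusted p = 0.000164), and LCAT, which esterifies the cholesterol that ABCA1 exports, at -0.83 (adjusted p = 0.00103). HBS1L, a ribosome rescue factor, was at -0.55 (adjusted p = 0.00609), and with the chromosome 6 median subtracted it was not called (-0.23, adjusted p = 0.200). PEX19, which inserts peroxisomal membrane proteins, was the one that was higher (0.23, adjusted p = 0.0220) and is named after its values were seen. With the chromosome 1 median subtracted it was not called (0.18, adjusted p = 0.0663). With the block 3 were higher and 10 lower, beside 31.1% and 30.1% of all genes.

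A list of enzymes of glutathione synthesis, conjugation and related transferases, only some of which make cargo for the C subfamily, had 17 tested genes. Of these 7 were higher, 2 lower and 8 not called, with a median of 0.21. Over all genes 19.7% were higher and 16.9% lower. UGT8, a ceramide galactosyltransferase, had 0.120 ± 0.0319 CPM in knockout and 0.841 ± 0.166 CPM in parental cells (-2.84, edgeR adjusted p = 6.57e-06). GCLC, the limiting enzyme of glutathione synthesis, had 13 ± 0.878 CPM in knockout and 20.3 ± 1.18 CPM in parental cells (-0.64, adjusted p = 5.03e-05). The transferases GSTM2 (0.69, adjusted p = 0.000702) and MGST3 (0.53, adjusted p = 0.000956) were higher. Counts with the block were 8 higher and 2 lower, beside 31.1% and 30.1% of all genes.

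A list of SLCO and SLC22 genes, families that include uptake carriers for drugs and organic ions, had 14 tested genes. Of these 5 were higher, 2 lower and 7 not called, with a median of 0.12. Over all genes 19.7% were higher and 16.9% lower. Not every gene of the list is a known drug uptake carrier. SLC22A17, a receptor for lipocalin, had 3.91 ± 0.875 CPM in knockout and 0.722 ± 0.199 CPM in parental cells (2.45, SE 0.23, edgeR adjusted p = 1.89e-05). SLC22A18 had 2.02 ± 0.350 CPM in knockout and 0.353 ± 0.119 CPM in parental cells (2.55, SE 0.25, adjusted p = 2.55e-05). SLC22A4, a carrier of ergothioneine, was higher (0.60, adjusted p = 2.89e-05) and SLC22A3, an organic cation carrier, lower (-1.48, adjusted p = 0.000118). SLCO4A1 was also higher and SLCO1A2 lower, and these 2 are named after their values were seen. With the block the counts were 5 higher and 4 lower, beside 31.1% and 30.1% of all genes.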

How the data were processed

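Polyadenylated RNA of 5 CCAR1 knockout and 5 parental samples was sequenced on a NovaSeq after NEBNext Ultra II library preparation, per the labels' protocols. The authors deposited estimated counts per gene, made with kallisto 0.48.0 and hg38 per the submitters' processing notes. How transcripts were summed to genes, the annotation release and the strandedness were not stated in any source used; overlapping genes and paralogs are therefore uncertain. Counts were rounded, kept by filterByExpr (18979 genes), TMM-scaled and fitted with genotype in edgeR 4.0.16 (R 4.3.3), with robust dispersion. The fit was tested on simulated counts that held no difference in expression between shallow and deep libraries. That test therefore cannot show how depth affects the calls. Positions and exon lengths come from GENCODE for GRCh38, matched for 58207 of 62700 IDs, and promoters from RefSeq.

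Every member is accounted for. Values in every library are given for members past 0.05, changed at least 1.5-fold and averaging at least 0.5 CPM in either genotype, and of each list up to 4 genes with the smallest adjusted p. Tested genes within 1 Mb were examined for the 2 highest and 2 lowest of those members. Values of some genes, counted in the totals, are not reported here. The members and lists were chosen with earlier results of these data known.

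Replicate numbers come from the titles, which do not say what they mark. Deviations from the group means correlated between samples of one number (0.584 to 0.899), which meets the rule used here for pairing. Samples of one depth but other numbers correlated alike (0.594 to 0.901), and once depth was removed the numbers did not (-0.0604 to -0.00521). The correlation thus followed depth, and these values show no pairing by number within a depth. The genotype model includes neither the numbers nor depth. Libraries of a group differed by more than sampling noise, so none was merged. Alternatives were DESeq2 1.42.0 and its size factors, library size only, other filters, no robust step, the block, depth as a term, each depth alone, chromosome medians subtracted, and each library left out.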

Additional observations from a re-analysis of the deposited data

Results flagged for a closer look

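Single libraries stood apart from the other 4 of their group in 3 of the 76 groups examined, where chance flags about 5% of groups. ABCA4 had 0.269 CPM in knockout replicate 3 and 0.137 to 0.173 CPM in the other knockout libraries. ABCG4 had 0.413 CPM in knockout replicate 3 and 0.154 to 0.223 CPM in the others. ABCF2 had 81.1 CPM in knockout replicate 1, against 84.4 to 85.6 CPM in the others, and all 5 were below the parental libraries.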

How the results depend on the processing

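With genotype alone 9 members were higher and 7 lower. With the replicate block these counts were 15 and 12, and with depth as a term 16 and 13, of 38 members tested. Of all genes tested, 61.2% were called with the block and 64% with depth as a term. The deep libraries alone gave 18 higher and 15 lower of 44 members tested, beside 57% of all genes called. The common coefficient of variation was 0.31 without the block and 0.0751 with it. Leaving out each library in turn gave 6 to 11 higher and 7 lower each time, beside 31.8% to 36.3% of all genes called. In these fits 3 calls were lost. ABCA2 was lost without knockout replicate 1, 2 or 3 or parental replicate 2, 4 or 5. ABCA7 was lost without knockout replicate 1, 2 or 3 or parental replicate 3, 4 or 5. ABCA13 was lost without knockout replicate 2, 4 or 5 or parental replicate 2, 4 or 5. Without parental replicate 1, ABCA3 and ABCG4 were called higher. DESeq2, its size factors, library size alone, other filters, no robust step, the shallow libraries alone and subtracted chromosome medians gave 8 to 10 higher and 5 to 10 lower. These settings tested 27 to 46 members and called 13.6% to 52.7% of all genes. Without a filter on low counts ABCA13 was not called (0.72, edgeR adjusted p = 0.0873). The block ended no call of a member and added 11. Of members not called, these log2 fold changes turned sign, and the cause was not tested. ABCE1 was at -0.0247 with DESeq2 and with its size factors, -0.0134 without a filter, -0.00224 (shallow alone), -0.014 (deep alone) and -0.0957 to 0.101 with each library left out. ABCG1 was at 0.0185 with the block, 0.0254 with depth as a term and 0.971 in the deep libraries. ABCA4 was at 0.0333 in the shallow libraries, and ABCC2 at 0.119 and ABCF3 at -0.00185 in the deep ones. With chromosome medians subtracted ABCB8 was at 0.0658 and ABCC10 at 0.162. In shallow libraries, members under about 0.5 CPM rest on few counts.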
